A study of Mus musculus with 6 samples.

Results

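The 62 genes described here encode the ligands, receptors and signal carriers of the transforming growth factor beta (TGF-beta) superfamily, with the proteins that store or block its ligands. They were chosen by a rule on gene names that uses no measured value, set with earlier results of these data known. The rule took names that start with Tgfb, Acvr or Inhb, or with Bmp, Gdf, Smad or Ltbp and a digit. It added Bmpr1a, Bmpr1b, Bmpr2, Inha, Fst, Fstl3, Nog, Grem1, Lefty2 and Nodal, and a few genes of the family, a Smad among them, stayed outside it and are not analysed here. They are read by 94 of the 41174 non-control probes of the array, which carry 27827 gene names in all. Some genes with such names are not ligands, receptors or Smads, and they are described last.

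Islets of the pancreas were compared between male mice of the strain NZO/HiBomDife (New Zealand Obese, here NZO) and male mice of the strain C57BL/6.V-Lepob/ob (here B6-ob/ob). The labels call NZO prone and B6-ob/ob resistant to diabetes brought on by diet. B6-ob/ob mice lack functional leptin, a mutation that NZO mice do not carry, and both strains become obese. All animals ate a fatty diet free of carbohydrate up to 18 weeks of age, and islets were collected 48 h after carbohydrate was given. Each strain has 3 samples on 3 single-colour Agilent arrays, NZO 10, 11 and 12 and B6-ob/ob 4, 5 and 6. No label tells whether 1 mouse or several gave a sample, so the p-values below reflect the spread among 3 samples of unknown kind, part of which may be technical. All mice had received carbohydrate, so each value is a strain difference at 1 time.

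Ligands of this superfamily are secreted as dimers, TGF-betas in a latent form tethered to the matrix by latent TGF-beta binding proteins. A dimer joins type II and type I receptor kinases, and the type I kinase phosphorylates Smad proteins, which enter the nucleus with Smad4 and switch genes on or off. TGF-betas, activins and Nodal signal through Smad2 among others, bone morphogenetic proteins (BMPs) mainly through Smad1, Smad5 and Smad9. Smad6 and Smad7 inhibit the cascade, and noggin, gremlin and follistatin bind ligands outside the cell. In the pancreas the superfamily is known for its roles in endocrine development, in insulin secretion by beta cells and in matrix production by stellate cells.

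Probe sequences are shown for Bmp4, Acvrl1 and Fst, whose values rest on 1 probe each, and for Inha, which is read at separate places. They are 60 bases long, are given 5′ to 3′ in lower case as the files hold them, and carry their mm9 positions from the files. Which transcript region a probe reads is not given there. The Bmp4 probe lies at chr14:47003802-47003861 on the minus strand. The probes of Inha lie at chr1:75503955-75504014 and chr1:75506675-75506734 on the plus strand. The Acvrl1 probe is mapped over 293 bases at chr15:100967514-100967806 on the plus strand, and the Fst probe over 673 bases at chr13:115244692-115245364 on the minus strand, so each of these joins separate stretches of the genome.
Bmp4: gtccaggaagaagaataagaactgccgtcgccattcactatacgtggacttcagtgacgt
Inha, first probe: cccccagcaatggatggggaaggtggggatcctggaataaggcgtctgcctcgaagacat
Inha, second probe: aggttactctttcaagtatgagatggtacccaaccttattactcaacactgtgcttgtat
Acvrl1: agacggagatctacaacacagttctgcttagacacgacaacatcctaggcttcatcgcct
Fst: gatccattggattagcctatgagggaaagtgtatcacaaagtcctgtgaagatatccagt

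Promoters are shown for the 4 members that were above background in both strains and differed by over 2 on the log2 scale. They come from RefSeq and follow build GRCm38.p6. Each run is the 250 bases before the gene's start, 5′ to 3′ on the gene's strand. Capitals mark CAGAC on either strand (GTCTG where it lies on the other strand), a short motif of Smad binding, and GGCGCC, a motif of the BMP Smads, which is the same on both strands. The positions are chr1:186705990-186706239 for Tgfb2, chr14:46390670-46390919 for Bmp4, chr14:33923337-33923586 for Gdf10 and chr12:84876492-84876741 for Ltbp2. Gdf10 is on the plus strand and the others are on the minus strand.
Tgfb2: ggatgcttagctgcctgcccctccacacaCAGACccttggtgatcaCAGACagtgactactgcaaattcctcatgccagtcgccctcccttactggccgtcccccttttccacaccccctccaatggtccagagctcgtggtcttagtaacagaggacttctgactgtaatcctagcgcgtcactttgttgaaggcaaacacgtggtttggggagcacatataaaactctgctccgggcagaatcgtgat
Bmp4: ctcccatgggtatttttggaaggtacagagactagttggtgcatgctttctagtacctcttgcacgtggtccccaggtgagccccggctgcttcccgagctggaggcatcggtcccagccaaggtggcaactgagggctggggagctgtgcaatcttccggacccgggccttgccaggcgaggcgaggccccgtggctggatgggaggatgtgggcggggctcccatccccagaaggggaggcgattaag
Gdf10: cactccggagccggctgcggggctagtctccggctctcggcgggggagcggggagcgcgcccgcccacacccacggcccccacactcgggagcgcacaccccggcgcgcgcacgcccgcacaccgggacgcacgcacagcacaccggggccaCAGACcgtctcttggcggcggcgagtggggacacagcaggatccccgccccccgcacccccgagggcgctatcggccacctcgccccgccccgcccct
Ltbp2: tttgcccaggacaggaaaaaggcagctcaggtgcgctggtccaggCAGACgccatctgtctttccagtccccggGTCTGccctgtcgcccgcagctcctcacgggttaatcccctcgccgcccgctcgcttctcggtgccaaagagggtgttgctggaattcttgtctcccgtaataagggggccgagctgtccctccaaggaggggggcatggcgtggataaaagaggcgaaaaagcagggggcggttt
Tgfb2 and Ltbp2 each hold 2 CAGAC matches and Gdf10 holds 1, while the Bmp4 window holds neither motif. Of all 32851 promoters of this length in the table, 42.2% hold CAGAC and 9.59% hold GGCGCC. Of 18 members that differed between strains, 13 have an entry, with 18 promoters in all since some genes have several. CAGAC stood in 14 of these 18 promoters and GGCGCC in 4. In the first listed promoter of each gene no match of one motif overlapped one of the other. A match describes letters and does not show binding.

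Levels below are log2 processed intensities relative to the 75th percentile of their own array, so a level of 0 equals that percentile. A probe's level depends on its sequence, so levels are set side by side only for the same probe. Values are listed for NZO 10, 11 and 12 and for B6-ob/ob 4, 5 and 6, in that order of replicates. Differences are NZO minus B6-ob/ob, with strains assigned as the scanner files are labelled. The authors' value table gives the opposite direction, since each of its columns tracks an array labelled with the other strain. Which of the 2 labellings is right is not settled here, and under the other one every direction below would be turned. A gene was tested if any of its probes stood well above background on 3 or more of 6 arrays, and its brightest such probe was used. "Higher" and "lower" mark differences with an adjusted p under 0.05 in limma, a linear model with moderated variances, after Benjamini-Hochberg adjustment over 16418 genes.

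Of the 62 genes, 44 were tested, and 18 of these differed between strains, against 22.2% of all genes tested. Levels were higher in NZO islets for 14 of them, against a background of 13.2% of all genes, and lower for 4, against 9%. Of the 44, 41 were above background on all 6 arrays and 3 on fewer, and Bmp2 passed the filter through NZO arrays alone, so it could pass only by being high there. The median difference of the 44 was 0.22, beside -0.03 over all genes tested. The 3 arrays of one strain lay wholly apart from those of the other for 26 genes, beside 41.1% of all genes. NZO arrays were above in 20 of them and below in 6, beside 20.7% and 20.4% of all genes. The 14 higher members lay in the ligands (8), the latent binding proteins (2), the receptors (2) and further genes with such names (2). None of the 6 Smads tested passed. Of the 18 genes not tested, 13 had a brightest probe above background on no array and 5 on 1 or 2 arrays.

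**Figure D1:**
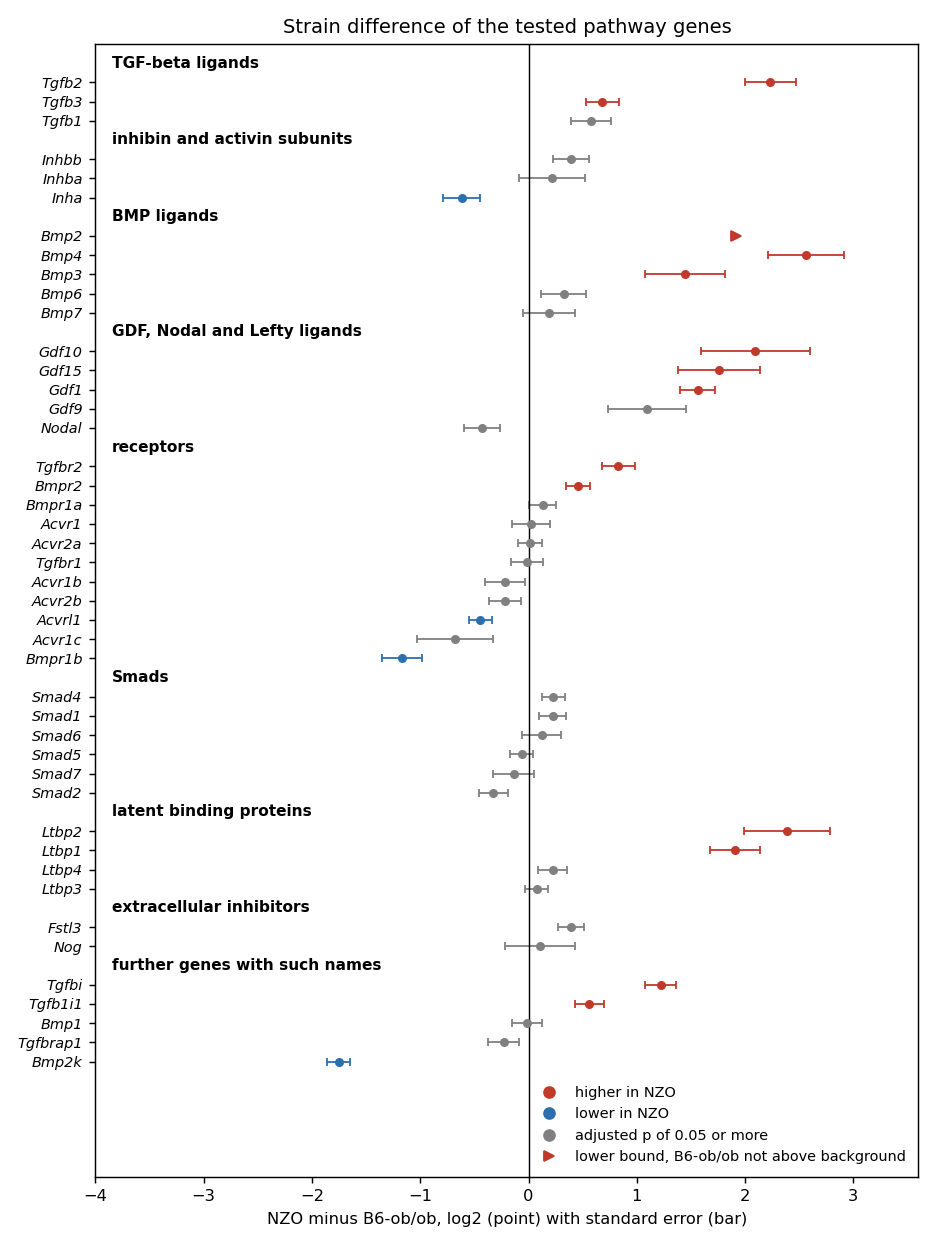
Strain difference (NZO minus B6-ob/ob, log2, horizontal axis) of the 44 tested genes, grouped by role on the vertical axis, with points for the limma estimate and bars for its standard error. Bmp2, not above background in B6-ob/ob, is drawn as a triangle at its approximate lower bound, the log2 of 3.78. The other genes higher in NZO reach 2.56 (Bmp4), and the 14 lie mainly among the ligands, the 4 lower ones reach -1.75 (Bmp2k), and the 6 Smads lie between -0.33 and 0.23.

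All 3 TGF-beta ligands were tested, and 2 were higher in NZO islets. Tgfb2, the isoform that heart and eye development depend on, is read by a probe at chr1:188447534-188447593. Its promoter is printed above. Its level was -2.57, -1.92 and -2.26 in NZO islets and -4.81, -4.47 and -4.16 in B6-ob/ob islets. The lowest NZO array stood over 1 log2 unit above the highest B6-ob/ob array. The difference was 2.23 ± 0.23 (standard error, SE, limma adjusted p = 0.0017), which is 4.69-fold. It passed in each of 6 fits that left out 1 array and in each of the other settings tried. Tgfb3, the isoform needed for closure of the palate, lies at chr12:87397804-87397863. Its level was 1.45, 1.63 and 1.54 in NZO islets and 0.98, 1.01 and 0.59 in B6-ob/ob islets. The groups did not overlap, and B6-ob/ob 6 was the lowest array. The difference was 0.68 ± 0.15 (SE, limma adjusted p = 0.023). It ran from 0.55 to 0.76 when 1 array was left out, and the call was lost without NZO 10, 11 or 12 or B6-ob/ob 5. Tgfb1, the main isoform of immune cells and fibrosis, averaged -2.27 ± 0.09 in NZO islets and -2.84 ± 0.33 in B6-ob/ob islets (SD, n = 3 each), a difference of 0.58 that did not pass (limma adjusted p = 0.0748). Without B6-ob/ob 4 it was 0.76 and passed.

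**Figure D2:**
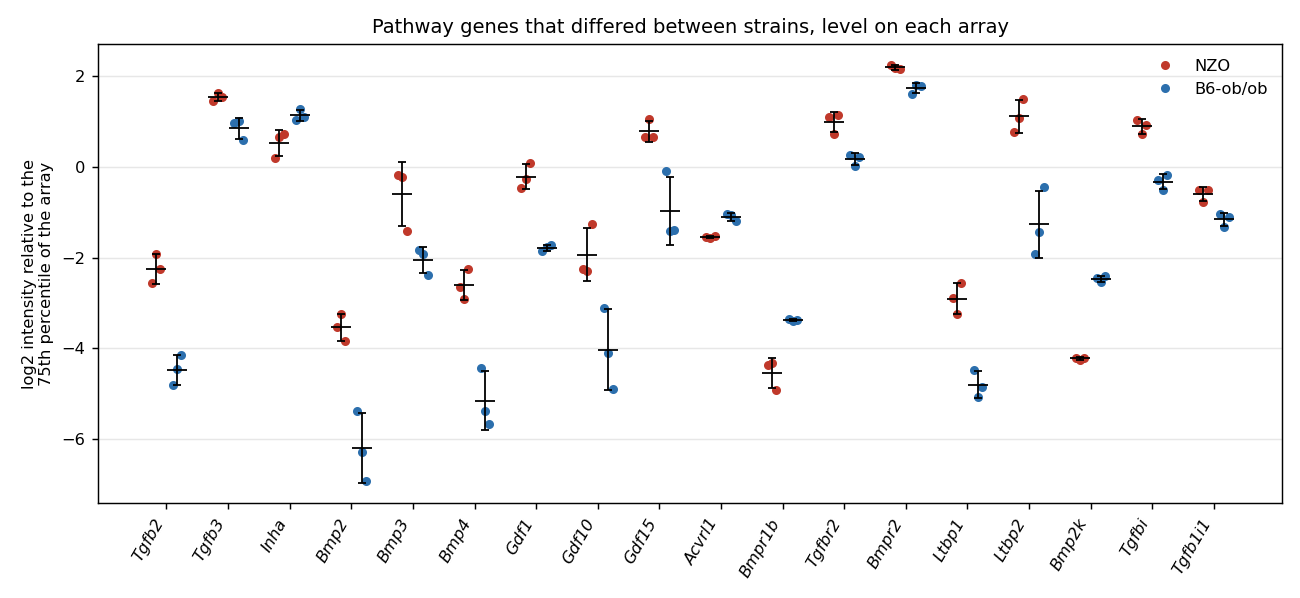
Level on each array (log2 intensity relative to the array's 75th percentile) of the 18 genes that differed, with NZO arrays left of B6-ob/ob arrays for each gene, and the mean and SD of 3 arrays as lines. The strains do not overlap for any of the 18. In B6-ob/ob, Bmp2 is above background on no array and Bmp4 on 1 of 3. Heights of different genes cannot be compared because they are read by different probes.

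Among the inhibin and activin subunits the alpha subunit was lower in NZO islets, and neither of the tested beta subunits differed. Inha encodes the alpha subunit, which pairs with a beta subunit to form inhibins, the antagonists of activins. Its brighter, second probe read 0.21, 0.65 and 0.72 in NZO islets and 1.04, 1.28 and 1.11 in B6-ob/ob islets. Its first probe read -2.99, -3.20 and -2.72 in NZO islets and -2.30, -2.20 and -2.20 in B6-ob/ob islets. Both places in the gene thus gave lower values on all NZO arrays. The difference was -0.62 with a standard error of 0.17 by the second probe (limma adjusted p = 0.0482). Where all 24628 kept probes were tested apart, of which 21.8% differed, the first probe differed by -0.74 and the second by -0.62 (limma adjusted p = 0.0177 and 0.0488). The call by the second probe was lost with any of the 6 arrays left out, where the difference ran from -0.72 to -0.46. Inhba encodes the subunit of activin A and averaged 0.77 ± 0.36 in NZO islets and 0.55 ± 0.52 in B6-ob/ob islets (SD, n = 3 each). Inhbb, the subunit of activin B, averaged 2.62 ± 0.11 in NZO islets and 2.22 ± 0.28 in B6-ob/ob islets, and its difference of 0.39 did not pass (limma adjusted p = 0.152). Inhbe, a subunit made mainly by liver, was above background on no NZO array and on 2 B6-ob/ob arrays. Its level was -5.04, -4.81 and -5.11 in NZO islets and -4.56, -5.36 and -5.29 in B6-ob/ob islets, so the strains overlapped and no fold is given. Inhbc, another liver subunit, was above background on no array.

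Of 5 tested BMP ligands 3 were higher in NZO islets and none was lower. Bmp2, a ligand of bone formation and early patterning, is read by a probe at chr2:133386981-133387040. Its level was -3.53, -3.24 and -3.83 in NZO islets and -5.39, -6.28 and -6.92 in B6-ob/ob islets. It was above background on all NZO arrays and on no B6-ob/ob array, so its B6-ob/ob level is an upper bound. Bmp2 was at least about 3.78-fold higher in NZO islets, by means of normalised log2 values. For that fold each B6-ob/ob array stood at the higher of the probe's own level and the lowest level called above background there. Some probes above that lowest level are still not called, so this and the other at-least folds are approximate. The fitted difference was 2.67 and used readings below background (limma adjusted p = 0.0056). Every p given beside an at-least fold likewise belongs to a fitted difference and not to the fold. The array holds 10 spots of this probe, and their SD on single arrays ran between 0.05 and 0.72 on the log2 scale. Bmp4, the closest relative of Bmp2 and a mesenchymal signal to developing epithelia, read -2.65, -2.91 and -2.24 in NZO islets and -4.43, -5.38 and -5.66 in B6-ob/ob islets. Its probe, printed above, was above background on 3 NZO arrays and on 1 B6-ob/ob array, so its B6-ob/ob level is measured on 1 of 3 arrays. The fitted difference was 2.56 ± 0.35 (SE, limma adjusted p = 0.00437). Bmp2 and Bmp4 passed in every fit that left out 1 array, and both were highest on B6-ob/ob 4 among the B6-ob/ob arrays.

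Bmp3, which opposes bone formation by other BMPs, is read at chr5:99308890-99308949. Its level was -0.17, -0.22 and -1.42 in NZO islets and -1.84, -1.93 and -2.38 in B6-ob/ob islets. NZO 12 stood apart from the other 2 NZO arrays and was nearer to B6-ob/ob. The difference was 1.44 ± 0.37 (SE, limma adjusted p = 0.0369). It ran from 1.23 to 1.85 when 1 array was left out, and it passed only in the fit without NZO 12. Bmp6, the iron-sensing signal of the liver, differed by 0.32 and did not pass (limma adjusted p = 0.33). Bmp7, a ligand of kidney and eye development, is read by a pair of probes that lie 19 bases apart and gave different results. The brighter one averaged -2.56 ± 0.06 in NZO islets and -2.75 ± 0.47 in B6-ob/ob islets (SD, n = 3 each), a difference of 0.19 (limma adjusted p = 0.626). The other averaged -2.25 ± 0.11 in NZO islets and -3.40 ± 0.52 in B6-ob/ob islets, a difference of 1.15 that passed among all kept probes (limma adjusted p = 0.0265). Bmp5, Bmp8a, Bmp8b, Bmp10 and Bmp15 were above background on no array.

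Of 12 GDF, Nodal and Lefty genes 5 were tested and 3 were higher in NZO islets. Gdf10, a ligand close to Bmp3, is read at chr14:34748161-34748220. Its level was -2.25, -2.30 and -1.26 in NZO islets and -3.10, -4.10 and -4.89 in B6-ob/ob islets. The gap between NZO 11 and B6-ob/ob 4 was under 1 log2 unit. The difference was 2.09 ± 0.51 (SE, limma adjusted p = 0.0311). It ran from 1.66 to 2.56 when 1 array was left out, and it passed only in the fit without B6-ob/ob 4. Gdf15, a hormone released by stressed cells that lowers food intake through a hindbrain receptor, is read at chr8:73153471-73153530. Its level was 0.66, 1.06 and 0.65 in NZO islets and -0.10, -1.41 and -1.39 in B6-ob/ob islets. B6-ob/ob 4 stood between the NZO arrays and the other 2 B6-ob/ob arrays. The difference was 1.76 ± 0.38 (SE, limma adjusted p = 0.0208). It ran from 1.54 to 2.19 when 1 array was left out, and the call was lost without NZO 10, 11 or 12 or B6-ob/ob 5.

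Gdf1, a partner of Nodal in left-right patterning that shares a transcript with the ceramide synthase gene Cers1 in mouse, is read at chr8:72855399-72855458. Its level was -0.46, -0.27 and 0.08 in NZO islets and -1.85, -1.77 and -1.71 in B6-ob/ob islets. The B6-ob/ob arrays lay close together, all over 1 log2 unit below the lowest NZO array. The difference was 1.56 ± 0.16 (SE, limma adjusted p = 0.00164), which is 2.95-fold, and it passed in every fit that left out 1 array. Gdf9, known as a growth factor of the egg cell, averaged -2.28 ± 0.60 in NZO islets and -3.37 ± 0.45 in B6-ob/ob islets (SD, n = 3 each). The strains did not overlap, but the difference of 1.09 did not pass (limma adjusted p = 0.08). Nodal, the ligand of mesoderm formation, was above background on 2 NZO and 3 B6-ob/ob arrays and differed by -0.43 without passing (limma adjusted p = 0.118). Gdf2, Gdf3, Gdf6, Gdf7 and Lefty2 were above background on no array, Gdf5 on 1 array of each strain and Gdf11 on 1 NZO array.

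Receptors went in both directions, with 2 of 11 tested higher and 2 lower in NZO islets, beside 13.2% and 9% of all genes. Tgfbr2, the type II receptor that binds TGF-betas, is read at chr9:115997155-115997214. Its level was 1.10, 0.74 and 1.15 in NZO islets and 0.26, 0.02 and 0.23 in B6-ob/ob islets. NZO 11 was the lowest NZO array and still above all B6-ob/ob arrays. The difference was 0.83 ± 0.15 (SE, limma adjusted p = 0.0127). It ran from 0.75 to 0.96 when 1 array was left out, and the call was lost without NZO 10 or B6-ob/ob 5. A dimmer probe of Tgfbr2, above background on 3 of 6 arrays, differed by 0.53 with a standard error of 1.05 and did not pass (limma adjusted p = 0.763). Bmpr2, the type II receptor of BMPs, is read at chr1:59934262-59934321 by its brightest probe. That probe read 2.26, 2.20 and 2.16 in NZO islets and 1.62, 1.82 and 1.79 in B6-ob/ob islets. The strains were apart by a small distance, with a difference of 0.46 and a standard error of 0.11 (limma adjusted p = 0.0312). It ran from 0.40 to 0.50 when 1 array was left out, and it passed only in the fit without B6-ob/ob 6. A second probe of Bmpr2 also passed, with a difference of 0.97 (limma adjusted p = 0.00593), while another gave -0.19 (limma adjusted p = 0.47).

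Bmpr1b, a type I receptor of BMPs known from cartilage and ovary, is read at chr3:141500694-141500753. Its level was -4.36, -4.33 and -4.92 in NZO islets and -3.35, -3.40 and -3.37 in B6-ob/ob islets. All B6-ob/ob arrays were nearly equal and stood well above the NZO arrays. The difference was -1.17 ± 0.18 (SE, limma adjusted p = 0.00676), so that B6-ob/ob islets were 2.25-fold above NZO islets, and it passed in every fit that left out 1 array. Acvrl1, the endothelial type I receptor also called ALK-1, read -1.54, -1.57 and -1.52 in NZO islets and -1.04, -1.06 and -1.20 in B6-ob/ob islets, by the probe printed above. The NZO arrays were nearly equal, and all of them were below the lowest B6-ob/ob array. The difference was -0.44 ± 0.10 (SE, limma adjusted p = 0.0289). It ran from -0.49 to -0.41 when 1 array was left out, and it passed only in the fit without B6-ob/ob 6. Probes of Gdf2 and Bmp10, which encode the known high-affinity ligands of this receptor, were above background on no array.

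Acvr1c encodes ALK-7, a type I receptor of activin B and Nodal that is known from islets and fat. Its brightest probe averaged -3.90 ± 0.65 in NZO islets and -3.22 ± 0.33 in B6-ob/ob islets (SD, n = 3 each), and the difference of -0.68 did not pass (limma adjusted p = 0.228). Without NZO 12 it was -1.06 and passed. Another probe of the gene, at chr2:58127082-58127141, was above background on all B6-ob/ob arrays and on no NZO array. It read -5.45, -5.86 and -5.32 in NZO islets and -3.06, -4.37 and -4.27 in B6-ob/ob islets. By this probe Acvr1c was at least 2.60-fold lower in NZO islets. The probe was kept through B6-ob/ob arrays alone, so it could be kept only by being high there. Its fitted difference of -1.64 uses NZO readings below background (limma adjusted p = 0.0253 among all kept probes). The remaining probe gave -0.82 and did not pass (limma adjusted p = 0.339). The 6 other tested receptors, Tgfbr1, Acvr1, Acvr1b, Bmpr1a, Acvr2a and Acvr2b, differed by between -0.22 and 0.13, and their strains overlapped. Tgfbr3, the co-receptor betaglycan, was above background on no array.

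None of the 6 tested Smads passed by its brightest probe. Smad1 and Smad5, which carry BMP signals, averaged 2.94 ± 0.10 and 2.86 ± 0.09 in NZO islets and 2.72 ± 0.14 and 2.93 ± 0.05 in B6-ob/ob islets (SD, n = 3 each). Smad2, which carries TGF-beta and activin signals, averaged -0.70 ± 0.08 in NZO islets and -0.38 ± 0.18 in B6-ob/ob islets, and all NZO arrays were below all B6-ob/ob arrays. Its difference of -0.33 did not pass (limma adjusted p = 0.137). The shared partner Smad4 differed by 0.23 (limma adjusted p = 0.195). The inhibitory Smads are known targets of the pathway that feed back on it, and Smad6 differed by 0.12 and Smad7 by -0.14 (limma adjusted p = 0.686 and 0.659). A second, dimmer probe of Smad1 was higher in NZO islets by 0.63 (limma adjusted p = 0.0211 among all kept probes). Smad9 was above background on B6-ob/ob 4 alone.

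Of the 4 latent TGF-beta binding proteins, which were all tested, 2 were higher in NZO islets. Ltbp2, a protein of elastic microfibrils that does not bind latent TGF-beta covalently, is read at chr12:86124173-86124232. Its level was 0.78, 1.08 and 1.51 in NZO islets and -1.92, -1.43 and -0.45 in B6-ob/ob islets. The B6-ob/ob arrays spread over more than 1 log2 unit and B6-ob/ob 6 was nearest to NZO. The difference was 2.39 ± 0.40 (SE, limma adjusted p = 0.00849). Ltbp1, which holds latent TGF-beta in the matrix, is read at chr17:75790058-75790191. Its level was -2.90, -3.25 and -2.57 in NZO islets and -4.49, -5.09 and -4.85 in B6-ob/ob islets. All NZO arrays were over 1 log2 unit above all B6-ob/ob arrays. The difference was 1.91 ± 0.23 (SE, limma adjusted p = 0.00277), and both genes passed in every fit that left out 1 array. Ltbp3 and Ltbp4 averaged 3.03 ± 0.05 and 2.93 ± 0.15 in NZO islets and 2.96 ± 0.08 and 2.71 ± 0.15 in B6-ob/ob islets (SD, n = 3 each), and neither passed (limma adjusted p = 0.672 and 0.307).

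Of 4 extracellular inhibitors 2 were tested and neither differed. Fstl3, which binds activins as follistatin does, averaged -1.49 ± 0.10 in NZO islets and -1.88 ± 0.12 in B6-ob/ob islets (SD, n = 3 each). The strains did not overlap, but the difference of 0.39 did not pass (limma adjusted p = 0.0661). Noggin (Nog), an antagonist of BMPs, differed by 0.11 (limma adjusted p = 0.852). Follistatin (Fst), the main soluble antagonist of activins, was above background on NZO 11 and 12 and on no B6-ob/ob array, too few arrays for the test. It read -5.55, -4.27 and -5.02 in NZO islets and -7.57, -7.69 and -7.75 in B6-ob/ob islets by the probe printed above. Its readings were higher on all NZO arrays than on any B6-ob/ob array. Apart from those of NZO 11 and 12 they were not above background, so no fold is given. Grem1, a further BMP antagonist, was above background on no array.

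The last 5 genes bear a family name without being ligands, receptors or Smads. Bmp2k, a kinase tied to endocytosis, is read at chr5:97519810-97519869 by its brightest probe. That probe read -4.21, -4.26 and -4.21 in NZO islets and -2.45, -2.55 and -2.41 in B6-ob/ob islets. Arrays of the same strain were nearly equal, and the strains stood far apart. The difference was -1.75 ± 0.10 (SE, limma adjusted p = 0.000264), so that B6-ob/ob islets were 3.37-fold above NZO islets. The other 2 probes of Bmp2k, each above background on 3 of 6 arrays, gave 0.20 and 0.18 and did not pass (limma adjusted p = 0.612 and 0.779). The strain difference of Bmp2k thus rests on 1 of 3 probes, and the mean of its probes did not pass.

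Tgfbi, a matrix protein whose gene TGF-beta induces, is read at chr13:56740460-56740519. Its level was 1.04, 0.73 and 0.93 in NZO islets and -0.29, -0.50 and -0.18 in B6-ob/ob islets. The strains stood apart, with a difference of 1.22 and a standard error of 0.14 (limma adjusted p = 0.00246). Tgfb1i1, also called Hic-5, is a focal adhesion protein read at chr7:135397036-135397095. Its level was -0.52, -0.76 and -0.50 in NZO islets and -1.04, -1.32 and -1.10 in B6-ob/ob islets. NZO 11 and B6-ob/ob 5 were the lowest arrays of their strains. The difference was 0.56 ± 0.14 (SE, limma adjusted p = 0.0317). It ran from 0.48 to 0.64 when 1 array was left out, and it passed only in the fit without B6-ob/ob 4. Of 2 other probes of Tgfb1i1, 1 gave 0.57 and the other 0.09, and neither passed (limma adjusted p = 0.0651 and 0.854). Bmp1, a protease that trims procollagen, differed by -0.02, and Tgfbrap1, which takes part in endosome fusion, by -0.23 (limma adjusted p = 0.952 and 0.32).

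Arrays of the strains shared slides in part, since NZO 10 and B6-ob/ob 4 lay on slide 2, NZO 11 and B6-ob/ob 5 and 6 on slide 3, and NZO 12 alone on slide 1. Within slide 2 and within slide 3 all 14 higher members were higher and all 4 lower members were lower. These signs were fixed in advance, because the strains do not overlap for any of these genes, so they are no check on slide. Gdf10 differed by 0.85 within slide 2 and by 2.20 within slide 3, and Gdf15 by 0.76 and 2.46. The difference of Bmp2k was nearly the same on both slides, at -1.75 and -1.78. With slide as a fixed block, a fit in which NZO 12 no longer informs the difference, 8 members were higher and 3 lower, beside 14.2% of all genes in either direction. The 8 higher ones were all among the 14, and 2 of the 3 lower ones were among the 4. The other lower one was Acvr1c, at -1.01. The calls of Tgfb3, Gdf10, Gdf15, Tgfbr2, Bmpr2, Tgfb1i1, Inha and Acvrl1 were lost in that fit. Without a filter on dim probes, where more genes are tested, Bmp3, Gdf10, Bmpr2, Tgfb1i1, Inha and Acvrl1 did not pass. With the median in place of the 75th percentile Bmpr2 and Tgfb1i1 did not pass, with quantile normalisation Inha did not, and with the mean of a gene's probes Tgfbr2, Bmp2k and Tgfb1i1 did not. Of the 14 higher members 8 had B6-ob/ob 4 as the highest B6-ob/ob array, as had 2 of the 4 lower ones. The share over all genes was not computed, so no result is read from these counts.

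**Figure D3:**
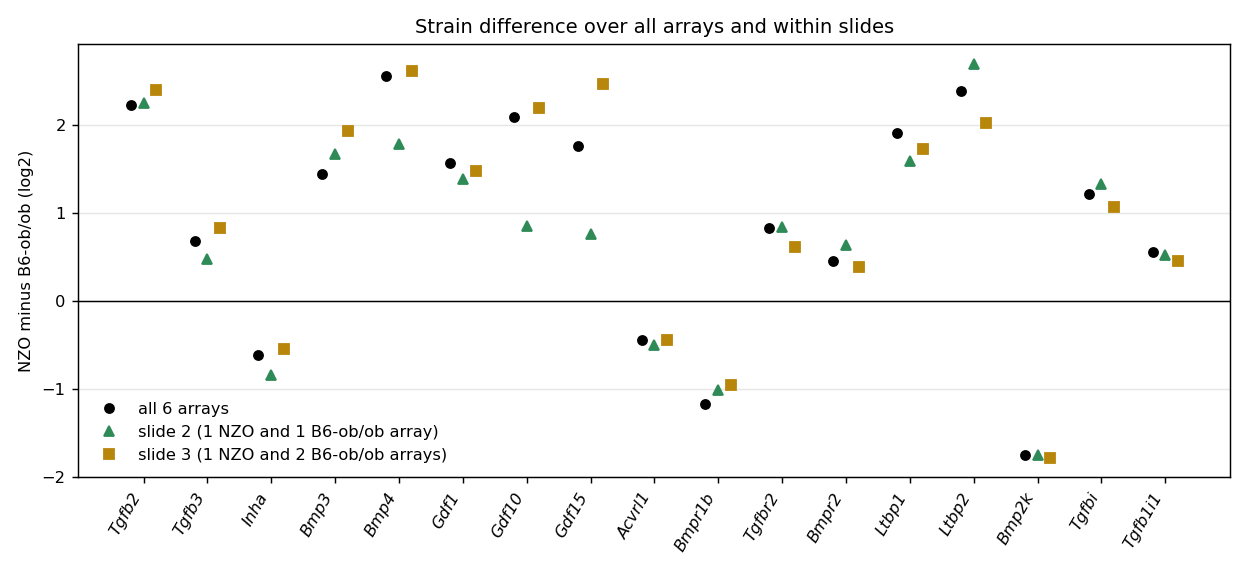
Difference NZO minus B6-ob/ob (log2, vertical axis) of 17 of the 18 genes that differed, without Bmp2, which is not above background in B6-ob/ob, over all 6 arrays (circles), within slide 2 (triangles, 1 array of each strain) and within slide 3 (squares, 1 NZO and 2 B6-ob/ob arrays). Signs within slides are fixed in advance, since the strains do not overlap for any of these genes. Gdf10 and Gdf15 differ most between slides in relative size, with 0.85 and 0.76 within slide 2 and 2.20 and 2.46 within slide 3.

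Other genes of the pathway were drawn from 6 lists, of which 126 genes were tested. Of these, 54 were higher and 8 lower in NZO islets, against 13.2% higher and 9% lower of all genes tested, and 64 did not pass. Their median difference was 0.53, beside -0.03 over all genes tested. Among the 54, Chrdl1, Sostdc1, Fbn2, Ltb4r1 and Runx2 passed the filter through NZO arrays alone, so they could pass only by being high there. The p-values of these genes belong to fitted differences that use B6-ob/ob readings below background. Among known target genes of TGF-beta and activin 20 of 32 were higher and none lower, with a median of 1.14, or 1.11 with genes measured in 1 strain only at their bound. The 20 became 12 without NZO 10 or NZO 11, 11 without B6-ob/ob 5 and 16 to 19 without another array. Fibronectin (Fn1), an adhesive matrix protein, averaged -0.32 ± 0.48 in NZO islets and -5.12 ± 0.67 in B6-ob/ob islets (SD, n = 3 each), a difference of 4.80 (limma adjusted p = 0.000779). Mmp2, a gelatinase, differed by 4.01 and Col1a1, a chain of type I collagen, by 3.89 (limma adjusted p = 0.00536 and 0.00982). Of the 32 genes 4 also serve as stellate cell and fibroblast markers below, and 17 of the other 28 were higher. The other 28 still include matrix genes such as Fn1, so this count does not separate the list from such cells. Among known target genes of BMP 9 of 15 were higher and none lower, with a median of 0.83, or 0.75 with such bounds, and 5 were higher with slide as a fixed block. Runx2, the regulator of bone formation, was above background on all NZO arrays and on no B6-ob/ob array and was at least 1.63-fold higher (limma adjusted p = 0.000475), a call that was lost with normexp background correction and quantile normalisation together. Jag1, a Notch ligand, differed by 1.56 and the transcription factor gene Tbx3 by 1.43 (limma adjusted p = 0.00076 and 0.000837).

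Among 12 tested genes of latency, activation and processing 5 were higher and 1 was lower, beside 13.2% and 9% of all genes tested. Their median was 1.20, and 3 were higher where probes had to be above background on all 6 arrays. Fibrillin-1 (Fbn1), whose microfibrils hold latent TGF-beta complexes, differed by 2.47, and the protease Pcsk5, which cleaves ligand precursors, by 1.91 (limma adjusted p = 0.000946 and 0.0127). Fbn2, a second fibrillin, was above background on NZO arrays only and at least 2.38-fold higher (limma adjusted p = 0.00543), a call that was also lost with normexp and quantile normalisation together. Among 20 further extracellular inhibitors and modulators 9 were higher and 1 was lower, beside the same shares of all genes, with a median of 0.54. Chrdl1, a BMP antagonist related to chordin, was at least 2.87-fold higher and Sostdc1, an antagonist of BMPs and Wnts, at least 5.97-fold, both above background on no B6-ob/ob array (limma adjusted p = 0.00169 and 0.00453). The secreted protease gene Htra3 differed by 3.03 (limma adjusted p = 0.00329). Among 13 other ligands and co-receptors 3 were higher and 1 was lower, beside 13.2% and 9% of all genes tested, with a median of 0.31. The higher ones were the matrix protein gene Dpt at 2.99, the membrane protein gene Tmeff2 at 1.22 and vasorin (Vasn), which binds TGF-beta, at 0.86 (limma adjusted p = 0.0212, 0.00236 and 0.00658). Without 1 array the difference of Dpt ran from 2.31 to 3.54, and its call was lost without NZO 10, NZO 12 or B6-ob/ob 5.

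Among 34 intracellular regulators 8 were higher and 5 lower, beside 13.2% and 9% of all genes tested, with a median of 0.03. Without NZO 10, NZO 11 or B6-ob/ob 5 only 3 were higher and 1 lower. The counts were 6 and 2 without NZO 12, 4 and 2 without B6-ob/ob 6, and 4 and 1 with slide as a fixed block or without a filter. Tgif2 and Tgif1, which encode co-repressors of Smads, differed by 2.63 and 1.84, and Zeb2, which encodes a Smad-binding repressor, by 2.17 (limma adjusted p = 0.0215, 0.000894 and 0.000303). Tgif2 stood at -0.65 ± 1.20 in B6-ob/ob islets (SD, n = 3). Without 1 array its difference ran from 2.17 to 3.31, and its call was lost without NZO 10, 11 or 12 or B6-ob/ob 5. The 8 lower genes of the lists were named after their values were seen. They include Smurf2, a ubiquitin ligase for receptors and Smads, at -1.02, and Fstl5 at -1.60 (limma adjusted p = 0.00273 and 0.00671). Map3k7, which encodes the kinase TAK1 of the Smad-independent branch, differed by -0.48. The genes of its binding partners TAB1 and TAB2, under their older names Map3k7ip1 and Map3k7ip2, differed by -0.39 and -0.44, and Xiap, which links BMP receptors to TAB1, by -0.47 (limma adjusted p for these 4 genes between 0.0281 and 0.0405). All 4 were lower, but each lost its call in at least 4 of 6 fits that left out 1 array, in which the 4 genes' differences ran from -0.56 to -0.36. The remaining lower genes were Rgmb, a BMP co-receptor, at -0.84 and Itgb8, an integrin that activates latent TGF-beta, at -1.08 (limma adjusted p = 0.0173 and 0.0485). Without 1 array Rgmb ran from -0.96 to -0.72, with its call lost without NZO 10 or 11 or B6-ob/ob 5, and Itgb8 ran from -1.42 to -0.89 and passed only without NZO 11.

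**Figure D4:**
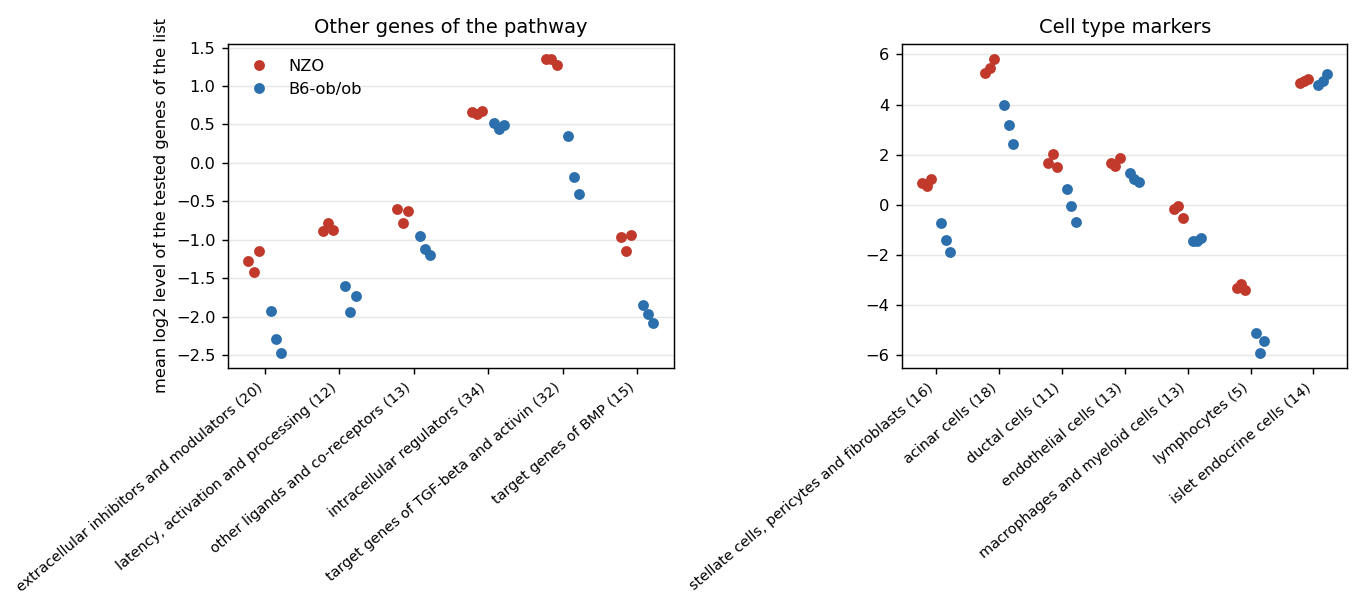
Mean log2 level on each array over the tested genes of each list, for 6 lists of other pathway genes (left) and 7 lists of cell type markers (right), with NZO points left of B6-ob/ob points and the number of tested genes in brackets. Stellate cell and fibroblast markers lie between 0.75 and 1.05 on NZO arrays and between -1.87 and -0.73 on B6-ob/ob arrays, while islet endocrine markers lie between 4.87 and 5.04 on NZO arrays and between 4.78 and 5.22 on B6-ob/ob arrays.

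Markers of other cells that an islet preparation can hold moved with these results, and in bulk samples fewer cells of a type and less RNA per cell cannot be told apart. Over all genes tested 13.2% were higher and 9% lower, the shares to set beside each count of markers below. Of the 16 markers that stand for stellate cells, pericytes or fibroblasts, 15 were higher in NZO islets, and Acta2, at -0.06, was not. Their summed linear level, in multiples of the array's 75th percentile, was 72.5 to 81.4 on NZO arrays and 19.0 to 29.6 on B6-ob/ob arrays. Of 18 acinar markers 16 were higher, with sums of 1870.3 to 2694 on NZO arrays and 270.2 to 905 on B6-ob/ob arrays. Ductal markers were higher in 6 of 11, endothelial markers in 5 of 13, macrophage and myeloid markers in 7 of 13 and lymphocyte markers in 5 of 5, with none lower in any of these lists. Of those tested, 8 ductal, 13 endothelial, 11 myeloid and 2 lymphocyte markers were above background on all 6 arrays. Muc1, Cftr, Cd163, Cd8b1 and Il7r, counted among the higher markers, were above background on only 3 of 6 arrays. Their means were -4.53 to -2.48 in NZO islets and -6.67 to -5.90 in B6-ob/ob islets. Markers this low in B6-ob/ob islets can pass the filter mainly by being high in NZO islets, so these calls are partly set by the filter. Ductal markers summed to 528 to 737 on NZO arrays and 373 to 726 on B6-ob/ob arrays, so these sums overlapped. The sums of endothelial markers were 88.4 to 107 on NZO arrays and 73.9 to 77.7 on B6-ob/ob arrays, and those of myeloid markers 23.3 to 46.0 on NZO arrays and 11.5 to 14.3 on B6-ob/ob arrays. Lymphocyte markers summed to 1.32 to 2.20 on NZO arrays and 0.103 to 0.179 on B6-ob/ob arrays, with 7 of 12 markers under the filter. Most of the NZO sum came from Ltb, which averaged 0.51 in NZO islets and -4.29 in B6-ob/ob islets. The stellate cell marker Pdgfra, counted among the higher ones, was above background on 3 of 6 arrays. Its mean was -3.00 in NZO islets and -7.29 in B6-ob/ob islets, so its call is likewise partly set by the filter. Islet endocrine markers, which define the labelled tissue, were above background on all 6 arrays for all 14 tested genes, with none higher and 2 lower. Within B6-ob/ob the sums of every list but the myeloid one, islet endocrine markers included, were highest on B6-ob/ob 4. The mean log2 level of the islet endocrine markers went the other way, at 4.78 on B6-ob/ob 4 and 4.94 and 5.22 on B6-ob/ob 5 and 6. The myeloid sum was highest on B6-ob/ob 6. The part of these cells in the differences of the pathway genes was not tested.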

How the data were processed

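Islet RNA of 6 samples was labelled with Cy3 and hybridised to Agilent mouse arrays of design 014868, 1 sample per array. Linear spot intensities were deposited as scanner files, made with Agilent Feature Extraction 10.5.1.1 and background subtraction per the file headers, whereas the submitters' processing notes name version 9.1. The authors' value table, with processed intensities at 33150 probes, was used only for the number of members called in either direction. Its scale is linear with column medians of 21.3 to 22.4 and no centring, its normalisation is not given in the sources used here, and its direction is unsettled, as its columns track arrays labelled with the opposite strain. The r over centred probes was 0.966 to 0.984 with that array, against -0.778 to -0.523 with the array that shares the column's label.

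Control spots and flagged spots (61 to 76 per array) were left out, and none of the probes was saturated. The log2 of the deposited processed intensity was averaged per probe over its spots and set relative to the array's own 75th percentile of 41174 probes. Probes had to be well above background on 3 or more of 6 arrays, as 24628 were, and a gene was represented by its brightest kept probe. Each array had 23621 to 24711 probes above background, and precision is limited by the 6 arrays. The strain comparison used limma 3.58.1 (lmFit, eBayes) under R 4.3.3. Tests were two-sided, p-values were adjusted by Benjamini-Hochberg over all 16418 genes, and the threshold was 0.05. The functions were tested on simulated data. Alternatives changed the background correction, scaling, filter, gene summary, slide, prior variance, array weights and the arrays used.

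The members, lists and rule for named genes were chosen with earlier results of these data known. The rule names every member, each array's value for members that differed or that were above background on at least 2 arrays of one strain and on none of the other, and up to 3 called genes of each list. Predicted and unnamed probes were left out, and gene names follow the files. No part of the study's paper was used.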

Additional observations from a re-analysis of the deposited data

How the results depend on the processing

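All 18 members that differed kept their direction under up to 17 alternatives, and 8 of them passed under every one. The authors' value table, which gives the opposite direction, is not among these alternatives. As the strains do not overlap for these 18, their direction could not change where 1 array was left out. Of the members higher in NZO, 14 by the reported setting, 8 passed with slide as a fixed block and 7 to 13 with 1 array left out (7 without NZO 10 or B6-ob/ob 5, 8 without NZO 11, 9 without NZO 12). Of the members lower in NZO, 4 by the reported setting, 2 passed without a filter, 8 were called with array weights and 2 to 3 with 1 array left out. In either direction the count of 18 became 11 with slide as a fixed block, 28 with array weights, 16 in the authors' value table and 9 to 15 with 1 array left out. Array weights stopped before they converged and called 8728 of all 16418 genes, against 3643 by the reported setting, so little rests on them. The counts over all genes were 2329 with the slide block and 1933 to 3574 with 1 array left out. Of other pathway genes 54 were higher, and 34 to 53 with 1 array left out (34 without B6-ob/ob 5). The 8 lower ones became 5 with normexp and quantile normalisation together, 3 without a filter, 2 with the slide block, 19 with array weights and 2 to 7 with 1 array left out (2 without NZO 10 or B6-ob/ob 5, 3 without NZO 11, 4 without NZO 12, 5 without B6-ob/ob 6). With 1 array left out some calls were lost and some gained, such as Tgfb1 without B6-ob/ob 4 and Acvr1c without NZO 12. The cause of the changes in these counts was not tested. Of the 26 named genes of the lists all kept their direction, and 16 passed under every alternative.

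Of 26 members that did not pass, 11 passed under at least 1 alternative, but only Tgfb1, Bmp7 and Acvr1c under any other than array weights. Of the 26, 11 changed sign under at least 1 alternative, all near 0. With normexp and quantile normalisation together Acvr1 was -0.00192, Acvr2a -0.021 and Bmp1 0.035. With quantile normalisation alone Tgfbr1 was 0.0023 and Acvr2a -0.014. With the median in place of the 75th percentile, which put the median of all genes at -0.11 in place of -0.03, Acvr1 was -0.052, Acvr2a -0.062 and Ltbp3 -0.00214. With the mean of a gene's probes Bmpr1a was -0.047, Ltbp3 -0.068 and Tgfbrap1 0.0024. With the slide block Acvr1 was -0.052 and Bmp1 0.023, and with array weights Tgfbr1 was 0.057 and Acvr1 -0.075. With 1 array left out Inhba ran between -0.049 and 0.47, Tgfbr1 between -0.092 and 0.11, Acvr1 between -0.11 and 0.15, Acvr2a between -0.058 and 0.069, Smad6 between -0.035 and 0.28, Smad7 between -0.26 and 0.040, Nog between -0.15 and 0.39 and Bmp1 between -0.090 and 0.10. Scaling moved the share of called genes that were higher in NZO by under 10 percentage points, from 59.4% to 52.5% with the median, but array weights gave 49.9%.

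No paired analysis was possible because the strains share no replicate number, and slide was the block tried instead. Bmp2 and Fst were above background on no B6-ob/ob array, and Bmp4 on 1. For Bmp2 only an approximate bound is given, and for Fst no fold.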
